A study of Mus musculus with 11 samples.

Results

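ATP-binding cassette (ABC) transporters are membrane proteins that use ATP to move lipids, bile salts, drugs, metals and peptides across membranes, and the family is followed here gene by gene in mouse liver. The members were all genes whose official symbol is Abca, Abcb, Abcc, Abcd, Abce, Abcf or Abcg followed by a number, found through the RefSeq accession on which each array probe was designed. This gave 49 genes on 67 probes, of 20144 genes that could be named on the array. The choice used names and no measured value. Of the 49 genes, 46 could be tested, and 41 of these were well above background in the liver channel on all 11 arrays. Abca12, Abca13 and Abcb5 were not tested because their probes were not well above background on at least 5 arrays. Some genes encoding ABC proteins carry other symbols and were not members: Cftr, Tap1 and Tap2 had log2 fold changes of -0.05, -0.09 and 0.17, none past the limma threshold and 0 of 3 under an unadjusted p of 0.05.

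Both groups were db/db mice, which lack a working leptin receptor and become obese and diabetic. The PBS group (5 arrays, replicates 1, 3, 4, 5 and 6) received phosphate-buffered saline. The anti-GCGR group (6 arrays, replicates 1 to 6) received the monoclonal antibody 3c7.v44 at 5 mg/kg. It binds the receptor for glucagon, the pancreatic hormone that raises hepatic glucose output. The comparison asks how liver transcripts differ once that receptor is blocked. Age, sex, number of doses and time of sampling are not given in the sources used here. Whether the replicates are different mice is not stated in the labels, and the spread that the p-values rest on may be technical. Each value below is a log2 ratio: the liver signal (Cy5) over the signal of a common reference RNA pooled from mouse material (Cy3) at the same probe. A log2 fold change is the anti-GCGR mean minus the PBS mean of these log2 ratios, with its standard error (SE) after ±. Genes past a limma adjusted p of 0.05 are said to have risen or fallen.

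In hepatocytes, ABC proteins of the canalicular membrane secrete the components of bile: bile salts, phosphatidylcholine, cholesterol and conjugated organic anions. Others load cholesterol and phospholipid onto HDL, bring fatty acids into peroxisomes, or serve mitochondria and lysosomes. A few members of the superfamily have no membrane part and work on ribosomes. Several of the lipid exporters are textbook targets of the oxysterol receptor LXR, and several of the bile pumps are targets of the bile acid receptor FXR.

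The arrays were similar in quality. Their median Cy5 signal lay between 85 and 110 over a local background of 26 to 27, between 66.2% and 77.1% of spots were well above background in Cy5, and log2 ratios of any pair of arrays correlated at 0.975 to 0.995 over genes. All 9 hepatocyte markers tested were above the reference in PBS liver, and none of them changed by limma (2 had an unadjusted p under 0.05). On every slide the PBS arrays lay at the first array positions and the anti-GCGR arrays at the last, so position on the slide and treatment cannot be told apart.

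The upstream sequence is shown for genes on which the results turn. Of the family, 38 genes had an entry in the RefSeq table of gene starts (assembly GRCm38.p6), with 45 starts in all, and no entry was found for Abcg1. The stretches below end at the base before a start and read 5′ to 3′ on the strand of the gene. Capitals mark 4 short motifs searched on both strands, with overlapping matches each counted: AGGTCA (the core motif of nuclear receptors), TGACG (the core of a cAMP response element), CACGTG (the E-box) and GGGCGG (the GC box). Abcg2, the canalicular gene with the largest rise, has 3 listed starts, and Abcb4, Abcb6 and Abca17 have 1 each.
Abcg2, chr6:58584283-58584532, plus strand: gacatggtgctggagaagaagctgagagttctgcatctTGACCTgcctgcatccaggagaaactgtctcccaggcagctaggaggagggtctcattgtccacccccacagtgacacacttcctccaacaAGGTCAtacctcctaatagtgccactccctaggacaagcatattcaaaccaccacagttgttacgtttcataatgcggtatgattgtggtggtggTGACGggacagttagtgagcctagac
Abcg2, chr6:58596422-58596671, plus strand: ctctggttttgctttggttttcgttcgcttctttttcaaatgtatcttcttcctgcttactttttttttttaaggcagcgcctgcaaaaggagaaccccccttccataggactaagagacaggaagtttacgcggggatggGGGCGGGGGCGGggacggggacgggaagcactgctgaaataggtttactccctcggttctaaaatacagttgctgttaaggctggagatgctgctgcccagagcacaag
Abcg2, chr6:58640296-58640545, plus strand: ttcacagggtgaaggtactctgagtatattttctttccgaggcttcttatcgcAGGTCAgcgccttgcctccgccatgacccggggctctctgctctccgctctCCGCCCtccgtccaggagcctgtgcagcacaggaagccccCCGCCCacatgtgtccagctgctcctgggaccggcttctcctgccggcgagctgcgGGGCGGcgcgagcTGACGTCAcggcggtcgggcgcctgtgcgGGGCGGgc
Abcb4, chr5:8893471-8893720, plus strand: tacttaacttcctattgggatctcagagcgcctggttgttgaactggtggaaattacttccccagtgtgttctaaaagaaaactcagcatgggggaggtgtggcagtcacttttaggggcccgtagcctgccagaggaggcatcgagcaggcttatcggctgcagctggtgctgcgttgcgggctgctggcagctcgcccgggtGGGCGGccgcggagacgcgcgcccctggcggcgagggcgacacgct
Abcb6, chr1:75180393-75180642, minus strand: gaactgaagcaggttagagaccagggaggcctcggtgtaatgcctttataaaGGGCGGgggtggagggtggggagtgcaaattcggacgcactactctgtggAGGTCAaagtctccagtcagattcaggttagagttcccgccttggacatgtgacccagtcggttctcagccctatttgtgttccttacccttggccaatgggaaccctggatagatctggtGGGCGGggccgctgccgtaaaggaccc
Abca17, chr17:24351060-24351309, minus strand: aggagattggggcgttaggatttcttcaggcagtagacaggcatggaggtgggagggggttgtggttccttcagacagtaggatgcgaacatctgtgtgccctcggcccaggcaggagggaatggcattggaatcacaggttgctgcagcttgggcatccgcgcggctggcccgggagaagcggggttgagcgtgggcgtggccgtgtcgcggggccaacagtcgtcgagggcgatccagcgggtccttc
The sterol exporters Abcg5 and Abcg8 are neighbours transcribed away from each other, and the whole stretch between their facing starts is 109 bases long, shown on the strand of Abcg8.
Abcg5 to Abcg8, chr17:84683012-84683120, plus strand: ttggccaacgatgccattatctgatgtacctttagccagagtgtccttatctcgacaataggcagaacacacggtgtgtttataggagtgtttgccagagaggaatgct

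None of the 4 motifs occurs in the stretch between Abcg5 and Abcg8, nor upstream of Abca17. The first Abcg2 start has 2 matches to AGGTCA and 1 to TGACG, and the third has 1 match to AGGTCA, 2 to TGACG (the palindrome TGACGTCA, read from both strands) and 4 to GGGCGG. Abcb6 has 1 match to AGGTCA and 2 to GGGCGG, and Abcb4 has 1 to GGGCGG. These letters are common: AGGTCA was found in 7 of the 45 family windows and in 14% of 32851 windows of the same length over all genes, TGACG in 9 of 45 and 17.8%, CACGTG in 5 of 45 and 6.02%, and GGGCGG in 20 of 45 and 32.7%. A match is a description of the sequence only.

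Across the family, 7 of the 46 genes changed. Abcg1, Abcg2, Abcb4, Abcb9 and Abcc12 rose in antibody-treated liver, and Abca17 and Abcb6 fell. Over all 15970 genes tested, 14.6% changed, 8.97% upward and 5.66% downward, so the share of family members that changed (15.2%) was near the background and is not a result about the family. One of the 7, Abcc12, was measurable mainly in the antibody group and passed the filter on dim probes only through it, so its call and its separation below carry little weight. The sizes were small: the family's log2 fold changes ran from -0.47 to 0.41 with a median of 0.06, against a median of 0.01 over all genes, and 6 members had a size of at least 0.3 (11.9% of all genes did). Above 0 were 29 of the 46 log2 fold changes, against 53.7% of all genes. For 3 members, Abca17, Abcc12 and Abcg2, the PBS and anti-GCGR arrays did not overlap, as for 6.64% of all genes, with Abcc12 limited as above.

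**Figure D1:**
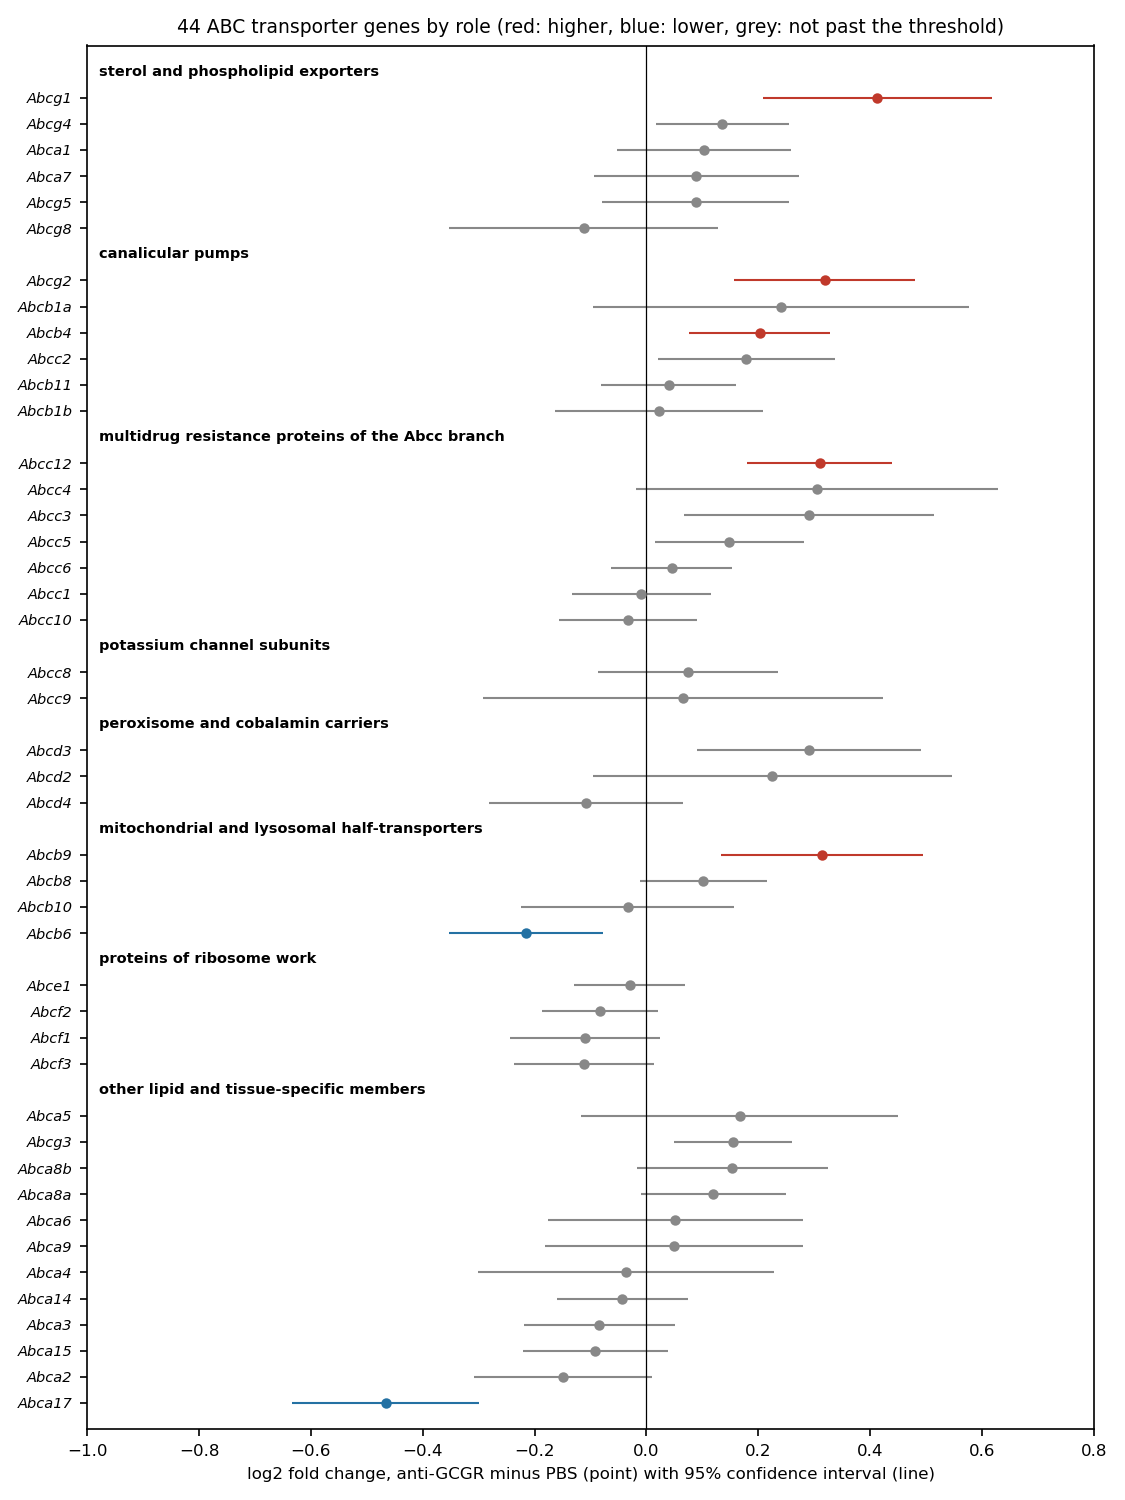
Log2 fold change (anti-GCGR minus PBS) with its 95% confidence interval for 44 of the 46 tested ABC genes, grouped by role, with red for genes that rose, blue for genes that fell and grey for the rest. The changed genes are spread over 5 of the 8 role groups, and all 4 members that work on ribosomes lie just below 0 without passing the threshold.

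The balance of rises and falls depended on how the arrays were centred. With each array's log2 ratios centred on their median after background correction in place of loess, 1 family gene rose and 6 fell, and over all genes 580 rose and 2146 fell, against 1433 and 904 with loess. The scanner software's own ratio gave 4 rises and 1 fall in the family and 977 rises and 1185 falls over all genes, and the Cy5 channel alone gave 5 and 3 in the family and 1181 and 1114 over all genes. The 7 named genes kept the direction of their change in each of these 3 scalings. With median centring Abca17 and Abcb6 still fell and Abcc12 still rose, while the adjusted p became 0.055 for Abcg1, 0.075 for Abcg2, 0.17 for Abcb9 and 0.35 for Abcb4. Rises and falls in the marker and pathway lists below are given with loess only and were not checked under the other scalings.

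Among the exporters of sterol and phospholipid, 1 of 6 changed, where 14.6% of all genes did. Abcg1, which moves cholesterol out of cells toward HDL and is prominent in macrophages, had log2 ratios of -0.52, -0.38, -0.27, -0.65 and -0.46 in PBS replicates 1, 3, 4, 5 and 6, the order used throughout. The 6 anti-GCGR arrays had a lowest value of -0.28, a median of -0.04 and a highest value of 0.23. The groups touched at a single point, where anti-GCGR replicate 1 lay just under PBS replicate 4. The means were -0.46 ± 0.14 (SD, n = 5) and -0.05 ± 0.19 (SD, n = 6), which is a difference of 0.41 ± 0.09 (limma adjusted p = 0.0154), or 1.33-fold. The rise was in the liver channel, which differed by 0.40, while the reference channel differed by 0.02. Within slides 1, 2 and 3 the difference was 0.23, 0.58 and 0.53. For every gene the value of slide 2 rests on 1 PBS array, replicate 5, here the lowest of its group.

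Markers of other liver cells rose in the same arrays. Of 9 macrophage and Kupffer cell markers tested, C1qb (a complement subunit) rose by 0.45 ± 0.09 (adjusted p = 0.00874) and Clec4f (a Kupffer cell lectin) by 0.23 ± 0.07 (adjusted p = 0.0408), and 7 did not pass. The summed quantile-normalised Cy5 signal of this list ranged from 20180.5 to 29236 in PBS and from 21993 to 28238 in anti-GCGR arrays. Of the endothelial markers 4 of 8 rose, and of the stellate cell and fibroblast markers 5 of 9 did, among them the collagen gene Col1a1 with a log2 fold change of 1.57. The endothelial sum ran from 12494 to 14415 in PBS and from 14206 to 17709 after antibody, and the stellate sum from 29678 to 32634 and from 32904 to 51323. Rises were also seen for 1 of 8 cholangiocyte, 3 of 4 erythroid, 1 of 8 lymphocyte and 1 of 6 adipocyte markers, against 8.97% of all genes, while 0 of 5 neutrophil markers passed by limma (0 also at an unadjusted p under 0.05). The lymphocyte gene that rose was Cd4, whose other kept probe had a log2 fold change of -0.01. In a bulk liver sample, more cells of a type and more RNA per cell cannot be told apart, and the part of these cells in the values of Abcg1 and the other members was not tested.

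The other sterol exporters did not pass the test. Abca1, which hands cholesterol and phospholipid to apolipoprotein A-I, had PBS log2 ratios of 2.63, 2.29, 2.56, 2.66 and 2.59, against a lowest value of 2.50, a median of 2.65 and a highest of 2.77 after antibody. The groups overlapped through most of their range, and the log2 fold change was 0.10 ± 0.07 (adjusted p = 0.37, 95% interval -0.05 to 0.26). Abcg5 and Abcg8 encode the paired subunits of the pump that secretes cholesterol into bile. Abcg5 had 6.68, 6.35, 6.62, 6.55 and 6.60 in PBS and 6.41 to 6.79 (median 6.65) after antibody, a log2 fold change of 0.09 ± 0.08. Abcg8 had 2.84, 2.64, 2.82, 2.55 and 2.33 in PBS and 2.26 to 2.83 (median 2.50) after antibody, a log2 fold change of -0.11 ± 0.11. Both pairs of groups overlapped, and the intervals ran from -0.08 to 0.25 for Abcg5 and from -0.35 to 0.13 for Abcg8. The directions of both depended on the scaling: Abcg5 was at -0.05 with median centring and -0.14 in Cy5 alone, and Abcg8 was at 0.21 by the scanner's ratio but -0.29 (adjusted p = 0.0604) in Cy5 alone, which does not use the reference. The reference channel of Abcg8 was not well above background on any array, so its ratio to the reference is a lower bound. Abcg4, the brain relative of Abcg1, and Abca7, a relative of Abca1, had log2 fold changes of 0.14 and 0.09.

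Of 12 LXR targets outside the family, 5 rose and none fell, with a list median of 0.18 (all genes 0.01; 8.97% of all genes rose). The largest rises were those of Scd1, the desaturase that makes oleic acid, at 1.65 ± 0.49 (adjusted p = 0.0408), Pltp, which moves phospholipid between lipoproteins, at 0.98 ± 0.20 (adjusted p = 0.00921), and Lpl, lipoprotein lipase, at 0.73 ± 0.11 (adjusted p = 0.00545). Of 15 partners in HDL formation and cholesterol efflux 2 rose, Pltp and Soat2, a cholesterol esterifying enzyme, at 0.60 ± 0.15 (adjusted p = 0.0197). Cyp7a1, also among the 12 LXR targets, went the other way at -1.04 ± 0.41 without passing (adjusted p = 0.11). The LXR gene Nr1h3 itself, which is counted in that list too, had a log2 fold change of -0.05.

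**Figure D2:**
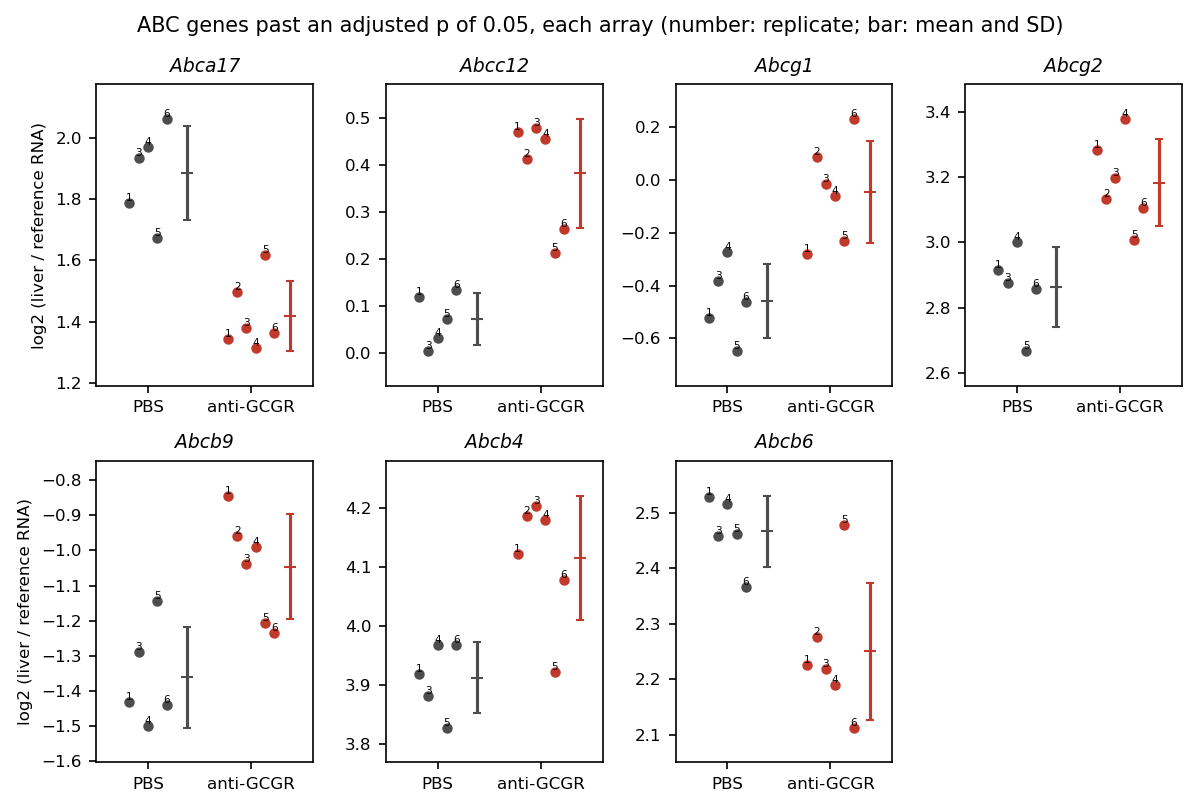
Log2 ratio of liver over reference RNA on each array for the 7 ABC genes that changed, with PBS in grey, anti-GCGR in red, the replicate number beside each point, and bars for the mean and SD. Abca17, Abcc12 and Abcg2 show separate groups, and anti-GCGR replicate 5 is the antibody array nearest to PBS for Abca17, Abcc12, Abcg2, Abcb4 and Abcb6.

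Of the 6 canalicular pumps, 2 rose and none fell, where 8.97% of all genes rose and 5.66% fell. Abcg2, which exports urate, porphyrins and drug conjugates, had PBS log2 ratios of 2.92, 2.88, 3.00, 2.67 and 2.86, and anti-GCGR values from 3.01 to 3.38 with a median of 3.16. Every antibody array lay above every PBS array. The means were 2.86 ± 0.12 (SD, n = 5) and 3.18 ± 0.13 (SD, n = 6), which is a difference of 0.32 ± 0.07 (limma adjusted p = 0.0167), or 1.25-fold. It was 0.37, 0.40 and 0.28 within the 3 slides.

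Abcb4, the flippase that supplies phosphatidylcholine to bile, had PBS values of 3.92, 3.88, 3.97, 3.83 and 3.97, and anti-GCGR values from 3.92 to 4.20 with a median of 4.15. Only anti-GCGR replicate 5 lay within the PBS range. The log2 fold change was 0.20 ± 0.06 (adjusted p = 0.0358), with 0.21, 0.23 and 0.22 within the slides. The liver channel differed by 0.48 and the reference channel, which holds the same RNA on every array, by 0.24. The call held without anti-GCGR replicate 5 (0.24, adjusted p = 0.00405) and was lost when any other single array was left out, with adjusted p from 0.051 to 0.080. It was also lost by the scanner's ratio (adjusted p = 0.055) and with a normexp offset of 16 (adjusted p = 0.0506).

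Abcb11, the bile salt export pump, did not pass: its PBS values were 4.74, 4.67, 4.78, 4.54 and 4.70, and its anti-GCGR values ran from 4.65 to 4.85 with a median of 4.72. The groups overlapped almost fully, and the log2 fold change was 0.04 ± 0.06 (95% interval -0.08 to 0.16). Abcc2, the pump for bilirubin glucuronides, had 5.60, 5.28, 5.71, 5.40 and 5.39 in PBS and 5.59 to 5.74 (median 5.63) after antibody, a log2 fold change of 0.18 ± 0.07 (adjusted p = 0.12). Antibody replicates 2 and 4 of Abcc2 lay just above the highest PBS array and the other antibody arrays within the wider PBS range, and in the Cy5 channel alone the difference was -0.01. The multidrug pump genes Abcb1a and Abcb1b lie beside Abcb4 on chromosome 5 with no protein-coding gene between the 3 of them. Abcb1a was above the reference in PBS (2.38 ± 0.17, SD, n = 5) and Abcb1b below it (-2.09 ± 0.09, SD, n = 5), and their log2 fold changes were 0.24 ± 0.16 and 0.02 ± 0.09, neither past the threshold. Anti-GCGR replicate 5 had the lowest Abcb1a value of all 11 arrays, 1.96, where the other antibody arrays had 2.46 to 3.00. Without that array, picked for its low value, Abcb1a rose by 0.37 (adjusted p = 0.0189). Without any of the other 10 arrays Abcb1a did not pass. All 6 pumps had log2 fold changes above 0, as did 53.7% of all genes, but not under every scaling. With median centring Abcb11 was at -0.07 and Abcb1b at -0.09, and in Cy5 alone Abcc2 was below 0. The sign of Abcb1b turned in 4 of 23 alternatives.

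Among 15 receptors and regulators of ABC genes, 2 rose and 1 fell, where 8.97% of all genes rose and 5.66% fell. Ppara, the fatty acid receptor, rose by 0.32 ± 0.09 (adjusted p = 0.0302), Nr1h4, which encodes FXR, rose by 0.23 ± 0.07 (adjusted p = 0.0350), and Ahr, the dioxin receptor, fell with a difference of -0.33 ± 0.09 (adjusted p = 0.0230). Of 14 genes of bile salt uptake and canalicular traffic tested, 1 rose and 2 fell, against the same shares, with a list median of 0.01. Myo5b, a motor of apical vesicle traffic, rose by 0.27 ± 0.05 (adjusted p = 0.00856). Slc9a3r1, a scaffold that anchors apical transporters, fell with a difference of -0.37 ± 0.10 (adjusted p = 0.0250). Slc10a1, the bile salt uptake carrier NTCP, is uncertain: its brighter probe had -0.31 ± 0.09 (adjusted p = 0.0356) and its other kept probe 0.32 ± 0.09 (adjusted p = 0.0383 over all kept probes).

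**Figure D3:**
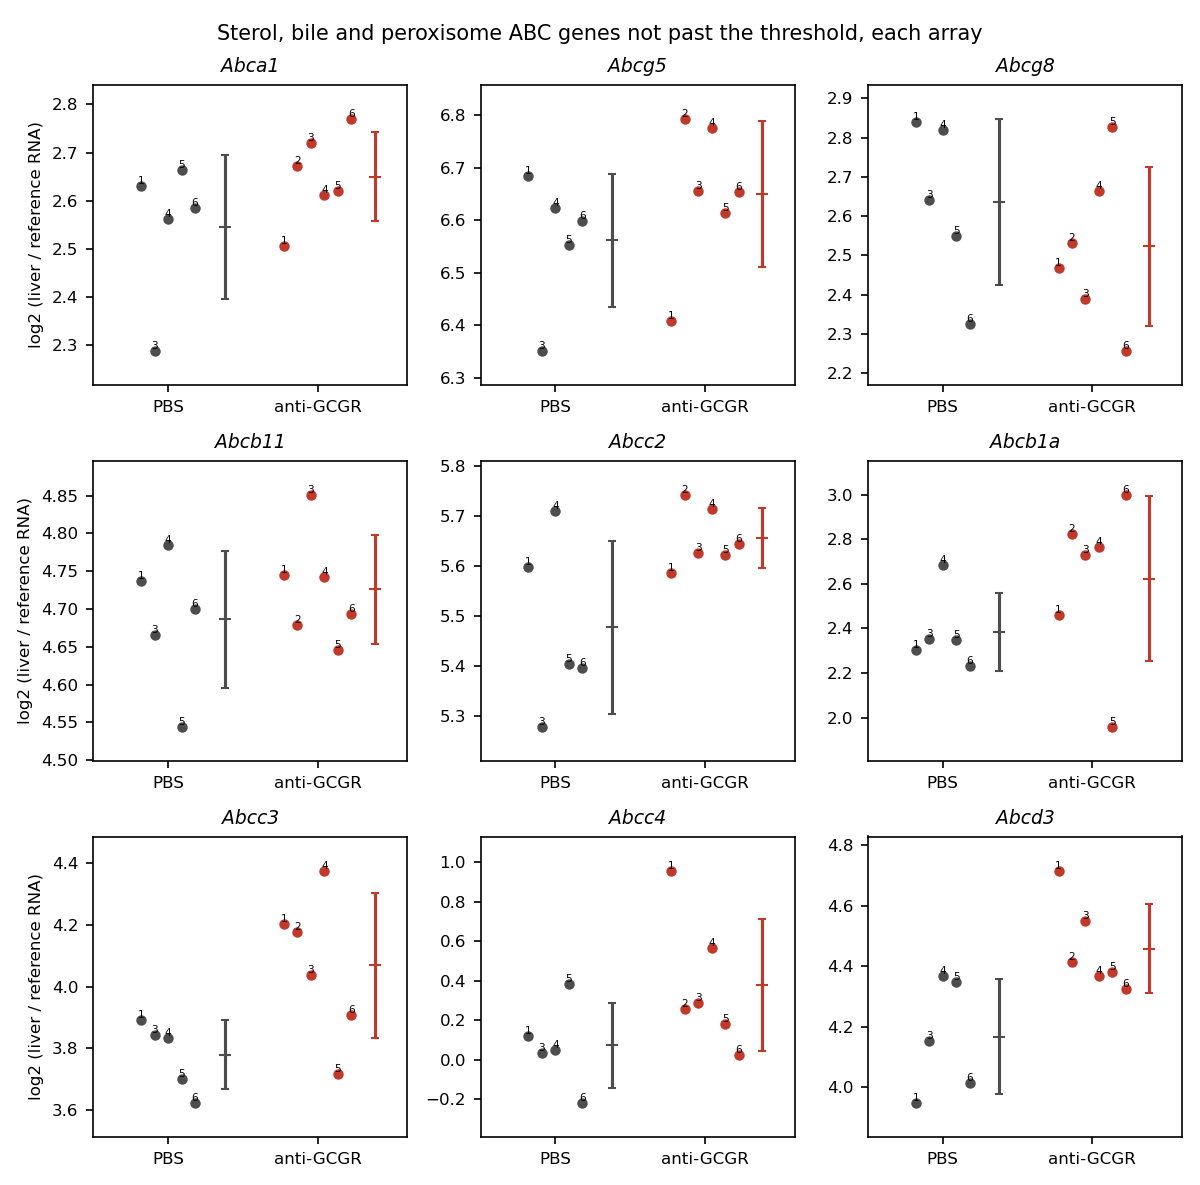
Log2 ratio of liver over reference RNA on each array for 9 ABC genes of sterol, bile and peroxisome transport that did not pass the threshold, drawn as in the plot of the changed genes. The groups overlap in every panel, and for Abcc3 and Abcb1a anti-GCGR replicate 5 lies below the other antibody arrays.

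In the remaining Abcc branch of multidrug resistance proteins, 1 of 7 changed, where 14.6% of all genes did. Abcc12, whose substrate is not well known, had PBS values of 0.12, 0.00, 0.03, 0.07 and 0.13 and anti-GCGR values from 0.21 to 0.48 with a median of 0.43, with no overlap. The log2 fold change was 0.31 ± 0.06 (adjusted p = 0.00856), but this value is no support for a change. The gene was dim and passed the filter only through the group where it is high: its liver signal was well above background on 2 of 5 PBS and 6 of 6 anti-GCGR arrays, its reference signal on none, and a second Abcc12 probe on no array. For such a probe the size hangs on the background correction: the log2 fold change was 0.56 with a normexp offset of 16 and 1.995 by the scanner's ratio.

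The transporters of the sinusoidal membrane, which return conjugates to blood, did not pass. Abcc3 had PBS values of 3.89, 3.84, 3.83, 3.70 and 3.62 and anti-GCGR values from 3.72 to 4.37 with a median of 4.11. Anti-GCGR replicate 5, the lowest antibody array, lay inside the PBS range and the other antibody arrays above it. The difference of 0.29 ± 0.10 missed the threshold (adjusted p = 0.0758). When that lowest array was dropped the difference was 0.36 (adjusted p = 0.00902). It missed the threshold without any of the other 10 arrays, with adjusted p up to 0.16. With the slide as a block the difference was 0.31 (adjusted p = 0.0333), the only 1 of 12 other settings in which Abcc3 passed. Abcc4 had 0.12, 0.03, 0.05, 0.38 and -0.22 in PBS and 0.03 to 0.95 (median 0.27) after antibody, a log2 fold change of 0.31 ± 0.15 (adjusted p = 0.19), with anti-GCGR replicate 1 at the top. Abcc6, whose loss causes ectopic mineralisation, had 4.67 ± 0.09 (SD, n = 5) in PBS and 4.72 ± 0.05 (SD, n = 6) after antibody. Its 2 probes gave log2 fold changes of 0.04 ± 0.05 and 0.25 ± 0.10, and in the Cy5 channel alone the brighter one fell by 0.30 (adjusted p = 0.0179), with the reference channel at -0.26. Abcc1, Abcc5 and Abcc10 had log2 fold changes from -0.03 to 0.15. The sulfonylurea receptor genes Abcc8 and Abcc9, subunits of ATP-sensitive potassium channels, had 0.07 each. One uneven Abcc8 spot (anti-GCGR replicate 1) was left out, so that value rests on 5 antibody arrays, and the 2 Abcc8 probes read 0.84 and -0.73 against the reference in PBS.

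None of the 4 Abcd genes passed by limma, and 1 had an unadjusted p under 0.05. Abcd3, the most studied peroxisomal ABC protein of liver (PMP70), had PBS values of 3.95, 4.15, 4.37, 4.35 and 4.02 and anti-GCGR values from 4.33 to 4.71 with a median of 4.40. The lowest antibody arrays lay level with PBS replicates 4 and 5, and the log2 fold change was 0.29 ± 0.09 (adjusted p = 0.0518). The liver channel differed by 0.19 and the reference channel, which holds the same RNA on every array, by -0.24. Abcd3 lay just past the threshold without anti-GCGR replicate 5 (0.31, adjusted p = 0.0374), PBS replicate 4 (0.34, adjusted p = 0.0430) or PBS replicate 5 (0.34, adjusted p = 0.0396). It missed the threshold without any of the other 8 arrays, with adjusted p up to 0.13. Abcd2, which carries very long and polyunsaturated fatty acids, had 0.96 ± 0.24 (SD, n = 5) and 1.18 ± 0.32 (SD, n = 6). It was at -0.11 by the scanner's ratio, with its reference signal well above background on 1 array. Abcd4, a lysosomal cobalamin carrier, had a log2 fold change of -0.11. Of 16 partners in peroxisomal fatty acid breakdown 2 rose and none fell (8.97% of all genes rose), with a list median of 0.14: the thiolase gene Acaa1b at 0.45 ± 0.10 (adjusted p = 0.0123) and the oxidase gene Acox3 at 0.18 ± 0.05 (adjusted p = 0.0353). A second kept probe of Acox3 had 0.10 ± 0.06 (adjusted p = 0.25 over all kept probes).

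Among the subunits that serve mitochondria and lysosomes, 1 of 5 rose and 1 fell, where 8.97% of all genes rose and 5.66% fell. Abcb9, which imports peptides into lysosomes, had PBS values of -1.43, -1.29, -1.50, -1.14 and -1.44 and anti-GCGR values from -1.24 to -0.84 with a median of -1.01. PBS replicate 5 lay above anti-GCGR replicates 5 and 6, the only overlap. The log2 fold change was 0.31 ± 0.08 (adjusted p = 0.0261), and it was 0.55, 0.06 and 0.23 within the slides. The value of slide 2 rests on PBS replicate 5, the highest PBS array. The call held when PBS replicate 3, PBS replicate 5, anti-GCGR replicate 5 or anti-GCGR replicate 6 was left out and was lost without any of the other 7 arrays, with adjusted p up to 0.067.

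Abcb6, a porphyrin transporter, had PBS values of 2.53, 2.46, 2.52, 2.46 and 2.37 and anti-GCGR values from 2.11 to 2.48 with a median of 2.22. Anti-GCGR replicate 5 lay inside the PBS range and the other antibody arrays below it. The fall was -0.22 ± 0.06 on the log2 scale (adjusted p = 0.0391), with -0.31, -0.08 and -0.25 within the slides. The call held without anti-GCGR replicate 5 (-0.26, adjusted p = 0.00318) or PBS replicate 6 (-0.24, adjusted p = 0.0436) and was lost without any of the other 9 arrays, with adjusted p up to 0.095. By the scanner's ratio Abcb6 was at -0.20 (adjusted p = 0.0744), past the threshold no longer. Abcb8 and Abcb10, of the inner mitochondrial membrane, had log2 fold changes of 0.10 and -0.03. Of 16 genes of iron, haem and iron-sulfur handling, 3 rose and none fell (8.97% of all genes rose), with a list median of 0.01. They were Glrx5, a glutaredoxin of cluster assembly, at 0.34 ± 0.08 (adjusted p = 0.0140), Slc25a37, the mitochondrial iron importer, at 0.37 ± 0.09 (adjusted p = 0.0167), and the scaffold gene Iscu at 0.16 ± 0.04 (adjusted p = 0.0305). A second kept probe of Slc25a37 had -0.06 ± 0.08.

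The 4 members without a membrane part, Abce1 (ribosome recycling) and Abcf1, Abcf2 and Abcf3 (translation factors), had log2 fold changes from -0.11 to -0.03. None passed the limma threshold (0 also at an unadjusted p under 0.05), and all stayed below 0 under every alternative run. With median centring Abcf1, Abcf2 and Abcf3 fell by 0.22, 0.21 and 0.24 (adjusted p = 0.0298, 0.0210 and 0.0314).

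Of the 12 remaining members tested, mostly Abca genes, 1 changed, where 14.6% of all genes did. Abca17, a lipid transporter gene of rodents that lies head to head with Abca3, had PBS values of 1.79, 1.93, 1.97, 1.67 and 2.06 and anti-GCGR values from 1.31 to 1.62 with a median of 1.37. Every antibody array lay below every PBS array. The means were 1.88 ± 0.15 (SD, n = 5) and 1.42 ± 0.12 (SD, n = 6), which is a difference of -0.47 ± 0.08 (limma adjusted p = 0.00559), or 1.38-fold lower, the largest fall of the family. It was -0.55, -0.12 and -0.63 within the slides, and slide 2 held 1 PBS array. The liver channel differed by -0.68 and the reference channel by -0.18. A second Abca17 probe was not well above background on any array. Abca3, the surfactant lipid transporter next to it, had 3.19 ± 0.11 (SD, n = 5) and 3.10 ± 0.09 (SD, n = 6), a log2 fold change of -0.08 ± 0.06 that did not pass.

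The row of Abca8b, Abca8a, Abca9, Abca6 and Abca5 on chromosome 11, lipid transporter relatives that follow one another with no protein-coding gene between, had log2 fold changes of 0.15, 0.12, 0.05, 0.05 and 0.17, none past the threshold. Abca2, of lysosomal sterol traffic, was at -0.15 ± 0.07. Abcg3, a rodent relative of Abcg2, was just outside the threshold at 0.16 ± 0.05 (adjusted p = 0.0501) and was dim. Its liver signal was well above background on 2 of 5 PBS and 5 of 6 anti-GCGR arrays. Like Abcc12, it passed the filter only through the group where it is high, so its value carries little weight. The retinal gene Abca4 and the testis genes Abca14 and Abca15 were near background, with 5 or 6 arrays well above it and log2 fold changes from -0.09 to -0.04.

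Several members were probed more than once. Among the 9 tested genes with several kept probes, the further probes had the sign of the brightest for all but Abcc8, whose probes had log2 fold changes of 0.07 and -0.03. The 4 Abcc5 probes, not all designed on the same transcript, ran from 0.00 to 0.15. None of the 7 changed genes had a second kept probe.

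Against the reference RNA, which is a mixture and not a tissue, the ratio marks how liver-enriched a transcript is at its own probe, and the order below holds for the brightest kept probe of each gene. Abcg5 stood highest in PBS at 6.56 ± 0.13 (SD, n = 5), followed by Abcc2 at 5.48 ± 0.17, Abca6 at 4.88 ± 0.12, Abcb11 at 4.69 ± 0.09, Abcc6 at 4.67 ± 0.09 and Abcd3 at 4.17 ± 0.19. Abcb11 and Abcc6 did not differ beyond their spread. Lowest were Abcc1 at -3.22 ± 0.11, Abcb1b at -2.09 ± 0.09 and Abcc5 at -1.61 ± 0.10. Other probes moved 2 of these genes: the second Abcc6 probe read 3.63, and the further Abcc5 probes -1.07, -0.47 and -0.41. Both groups kept nearly this order, since the family's log2 fold changes stayed within -0.47 to 0.41 while its PBS ratios spanned -3.22 to 6.56.

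**Figure D4:**
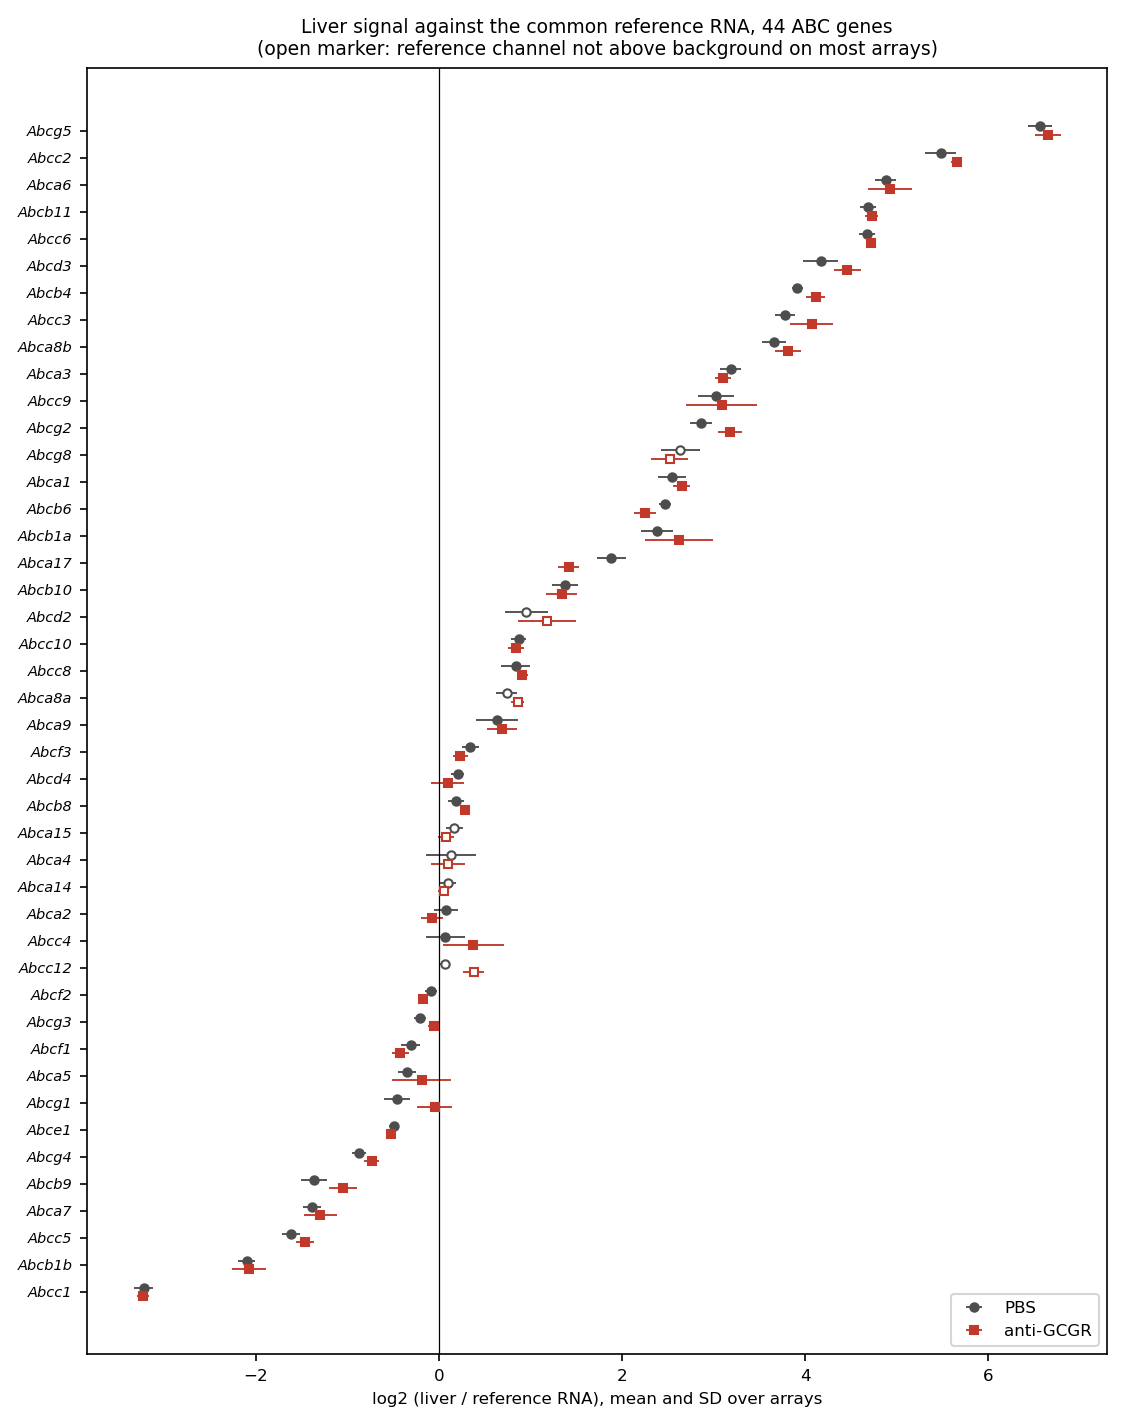
Mean log2 ratio of liver over reference RNA with its SD over arrays, for PBS (grey circles) and anti-GCGR (red squares), for 44 of the 46 tested ABC genes in the order of their PBS mean. Open markers are genes whose reference channel was not above background on most arrays, and the distance between the groups is small beside the distance between genes, from -3.22 for Abcc1 to 6.56 for Abcg5.

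Array by array, anti-GCGR replicate 5 stood nearest to PBS among the antibody arrays by the median over members. The median deviation of the 46 members from their PBS means was -0.00067 there, against 0.03 to 0.11 on the other 5 antibody arrays and -0.02 to 0.05 on the PBS arrays. The median hides larger gaps: for Abca5, Abca6, Abca7, Abcb1a and Abcc9 that array lay below every PBS array. Without that array 12 of the 46 family genes changed, 10 upward and 2 downward, near the 24.2% of all genes that did. The array was singled out from these same values, so the added calls are no support for a change. The 5 added were Abcb1a, Abcc3, Abcc5, Abcd3 and Abcg3, with log2 fold changes from 0.18 to 0.37 without that array. Of these, Abcg3 passed the filter on dim probes only through the antibody group and carries little weight. The family count was 4 without PBS replicate 1 and without anti-GCGR replicate 1, 2, 3 or 4. Abca17, Abcg1 and Abcg2 remained changed whichever single array was left out. Abcc12 did too, but was not tested where a probe had to be above background on all 11 arrays.

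**Figure D5:**
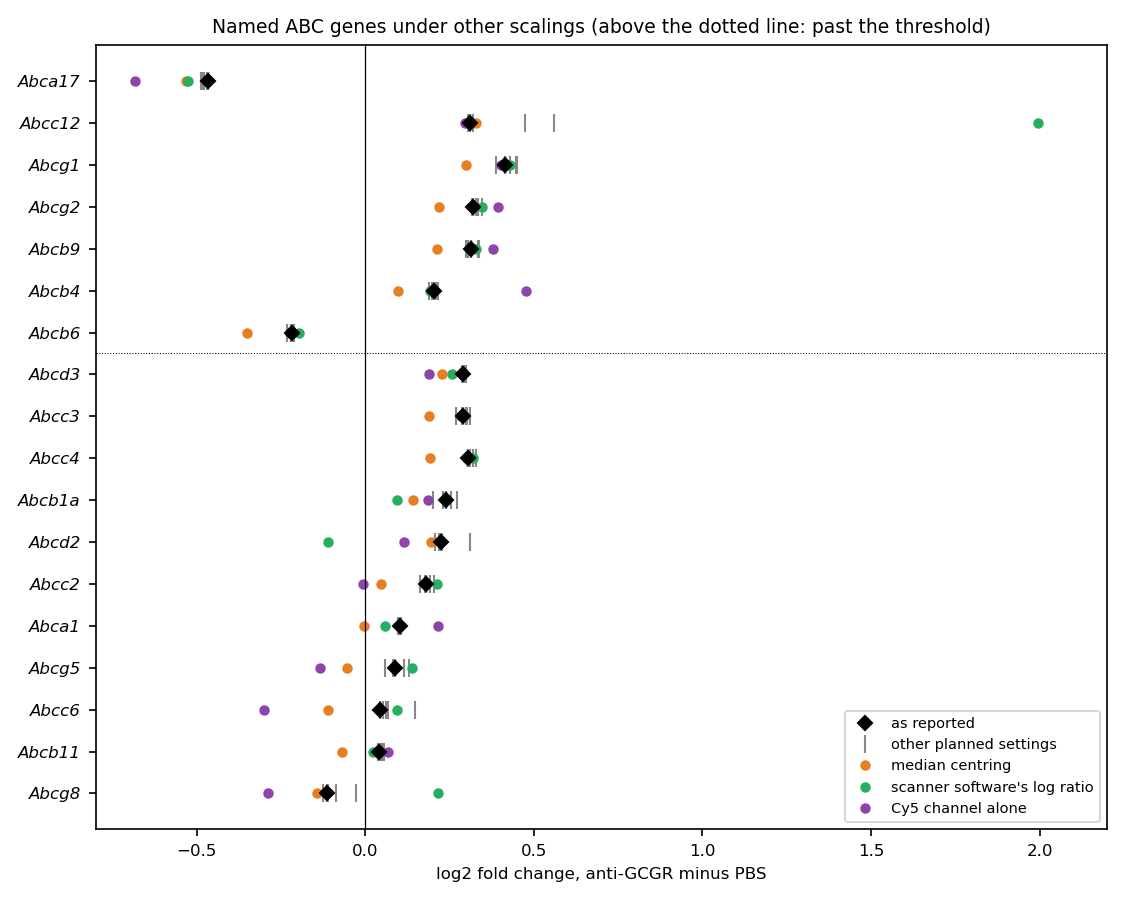
Log2 fold change (anti-GCGR minus PBS) of 18 named ABC genes as reported (black diamonds), with median centring, the scanner's ratio and the Cy5 channel alone (coloured points) and under the other planned settings (grey bars). The 7 changed genes, above the dotted line, stay on 1 side of 0, while Abca1, Abcg5, Abcb11, Abcc6, Abcc2, Abcg8 and Abcd2 cross it under at least 1 scaling.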

How the data were processed

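Two-colour Agilent arrays measured liver RNA (Cy5) against a pooled reference RNA (Cy3), without dye swap. Per the labels, cRNA was amplified from column-purified RNA. Per the submitters' processing notes, arrays were extracted with Agilent Feature Extraction 11 (11.5.1.1 per the file headers). As deposited, the scanner files hold unlogged median intensity of spot and background and, per the file headers, a log10 ratio of processed signals beside quality flags (0 or 1). A table of log2 ratios by the authors came with them, its processing not given in the sources used here. Against the values computed here they differed by a median of 0.00329 and correlated at 0.999964 or above, so scale and direction (Cy5 over Cy3) match. They were not centred per gene, and their column medians were -0.0026, 0.0022, 0.00079, 0.0081 and 0.00021 (PBS) and -0.00096, 0.0075, 0.0015, -0.0028, 0.0054 and 0.0013 (anti-GCGR).

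The tool was limma 3.58.1 (R 4.3.3): normexp background correction (offset 50) and loess per array, in which control spots had weight 0. Then uneven spots were dropped and spots of a probe averaged. No spot was saturated. Probes (39429) were named through RefSeq accessions in a GRCm38.p6 gene table, which left 12848 unnamed. A probe was kept if its Cy5 signal was well above background on 5 or more of 11 arrays, and the brightest kept probe stood for its gene. Groups were compared with lmFit and eBayes, two-sided, Benjamini-Hochberg adjusted over 15970 genes, threshold 0.05; unadjusted, 13 of 46 family genes were under 0.05. The scripts were tested on simulated data.

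Sequences and motif shares come from the RefSeq table of starts (250 upstream bases). Named genes were all changed members, members set by function (Abca1, Abcg1, Abcg5, Abcg8, Abcb11, Abcb4, Abcb1a, Abcc2, Abcg2, Abcc3, Abcc4, Abcc6, Abcd2 and Abcd3), and up to 3 rises and 3 falls per pathway list. Further members are given to complete each role, and 2 tested members are counted but not reported here. Nr1h3, Cyp7a1, Col1a1 and the adipocyte markers were named after their values were seen. Members, lists and alternatives were chosen with earlier results of these data known. PBS replicate 2 is not analysed here. Arrays lay on 3 slides, 2 of which held 2 PBS and 2 anti-GCGR arrays each. Alternatives were centring, scaling, background, filters, probe rule, slide and replicate blocks and single arrays left out.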

Additional observations from a re-analysis of the deposited data

Results flagged for a closer look

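In 5 of 92 group-by-gene sets of the family, 1 array lay apart from the rest of its group by Dixon's criterion, and chance gives about 1 in 20. The log2 ratio of Abca2 was -0.31 on anti-GCGR replicate 1, the lowest of its group, with the next at -0.06. Abcb1a was at 2.68 on PBS replicate 4, the highest of its group (next 2.35). Abca1 was at 2.29 on PBS replicate 3, the lowest (next 2.56). Abca7 was at -1.64 on anti-GCGR replicate 5, the lowest (next -1.30). Abcb10 was at 1.13 on PBS replicate 6, the lowest (next 1.38). None of these genes passed the threshold between the groups.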

How the results depend on the processing

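All 7 changed genes kept their direction under every alternative in which they were tested (Abcc12 was filtered out where all 11 arrays had to be above background). With median centring the family's median log2 fold change became -0.028 and Abca1, Abcg5, Abcb11 and Abcc6 reversed to -0.0042, -0.054, -0.071 and -0.11. The scanner's ratio reversed Abcg8 (0.21) and Abcd2 (-0.11), and Cy5 alone reversed Abcg5 (-0.14), Abcc2 (-0.0067) and Abcc6 (-0.30). The causes were not tested. With single arrays left out, the genes changed numbered 1240 to 3867, the family genes 4 to 12, and the family median ran from 0.039 to 0.095. Same-numbered samples lay on the same slide but did not deviate together (correlations -0.13 to 0.14). These correlations cannot settle whether the numbers pair samples. The replicate block left 1044 genes and 4 family genes (Abca17, Abcc12, Abcg1 and Abcg2), with fewer samples and residual degrees of freedom. Abcb4, Abcb6 and Abcb9 lost their calls there. A test of each kept probe, chosen after seeing the data, called 7 family probes. The number of arrays limits precision, and for Abcc12, Abcg3, Abca4, Abca14 and Abca15 so does signal near background.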
